A study of Mus musculus with 8 samples.

Results

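Mouse dendritic cells that lacked Gata1 were compared with Gata1 wild-type cells in the absence of a stimulus, which the labels call steady state. The comparison used 4 of the 8 RNA-seq libraries of the series, 2 from Gata1 knock-out (KO) cells and 2 from Gata1 wild-type (WT) cells, chosen by their genotype and treatment labels. The other libraries, from LPS-stimulated cells of both genotypes, entered only an alternative fit. Of 23420 features in the count table, 12110 passed a filter on low counts and were tested, and 11310 were not. Not given in the sources used here are the promoter that drives any Cre, the deleted part of the gene, the strain, age and sex of the mice, and how the dendritic cells were obtained. The study's design text calls the libraries of a group biological replicates, and nothing says whether they came from separate animals or cultures, so the spread behind each p-value is between libraries and may be technical.

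GATA1 is a zinc-finger transcription factor that binds the sequence GATA and is required for erythroid cells, megakaryocytes, mast cells and eosinophils. Its relative GATA2 acts in stem and progenitor cells and shares many binding sites with it. Dendritic cells take up antigen in tissues and, on maturation, raise the costimulatory ligands CD80 and CD86 and the chemokine receptor CCR7. CCR7 guides them along the chemokines CCL19 and CCL21 to lymph nodes, and polysialic acid, a sugar chain made by ST8SIA4 and carried on NRP2, aids the response to CCL21.

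Total counts were 12243848 and 10174720 in KO libraries 1 and 2, and 9855387 and 12536554 in WT libraries 1 and 2. Levels are given as CPM, counts scaled to library size, always in the order KO 1, KO 2, WT 1, WT 2. A log2 fold change is KO over WT, with its SE. The WT libraries differed from each other more than the KO libraries did, with a median SD of log2 CPM of 0.195 against 0.109. All 15 dendritic cell identity markers passed the filter, among them Itgax at 664, 414, 508 and 399 CPM and Zbtb46, a transcription factor of conventional dendritic cells, at 73.1, 59.6, 54.3 and 95.6 CPM. Macrophage markers were present too (20 of 22 passed the filter, summed at 26452 to 36961 CPM), and 8 of 14 erythroid markers, the haemoglobin gene Hba-a1 among them, had no read in any library.

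WT library 2 stood apart from the other 3 libraries. It held the highest level of 14 of 17 neutrophil markers, 9 of 16 basophil and mast cell markers and 11 of 13 B cell markers. S100a8 and S100a9, the calprotectin subunits of neutrophils, were at 2.66, 2.87, 9.23 and 53.6 CPM and at 2.58, 1.05, 10.1 and 93.6 CPM. Ngp, a neutrophil granule protein, was at 1.5, 0.287, 2.38 and 52.1 CPM. These genes were highest in WT library 2 and second highest in WT library 1. The basophil protease genes Prss34 and Mcpt8 were at 0.249, 0.191, 1.45 and 59.6 CPM and at 0, 0, 0.207 and 11 CPM. The B cell surface genes Ms4a1 and Cd79b were at 0.582, 2.01, 0.415 and 7.21 CPM and at 1.25, 1.81, 1.56 and 9.58 CPM. In both B cell genes WT library 1 was below KO library 2. Summed over the 17 neutrophil markers, the level was 1153, 939, 938 and 1210 CPM. Without Mmp8, Mmp9, Chi3l3 and Csf3r, left out after the values were seen, the sum over 13 was 14.6, 18.1, 52.5 and 344 CPM. Of those left out, Mmp9 was lowest in WT library 2 (210, 260, 299 and 125 CPM). The 16 basophil and mast cell markers summed to 171, 196, 184 and 258 CPM. Without Gata2, Il3ra, Kit, Cd200r3, Fcer1a and Hdc, trimmed likewise, the sum over 10 was 3.66, 4.78, 4.77 and 98.3 CPM. The 13 B cell markers summed to 47.6, 43.2, 31.2 and 77.6 CPM. Without Cd22 the sum over 12 was 5.57, 12.7, 6.53 and 42.8 CPM. In such bulk samples, fewer cells of a type and less RNA per cell cannot be told apart.

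**Figure D1:**
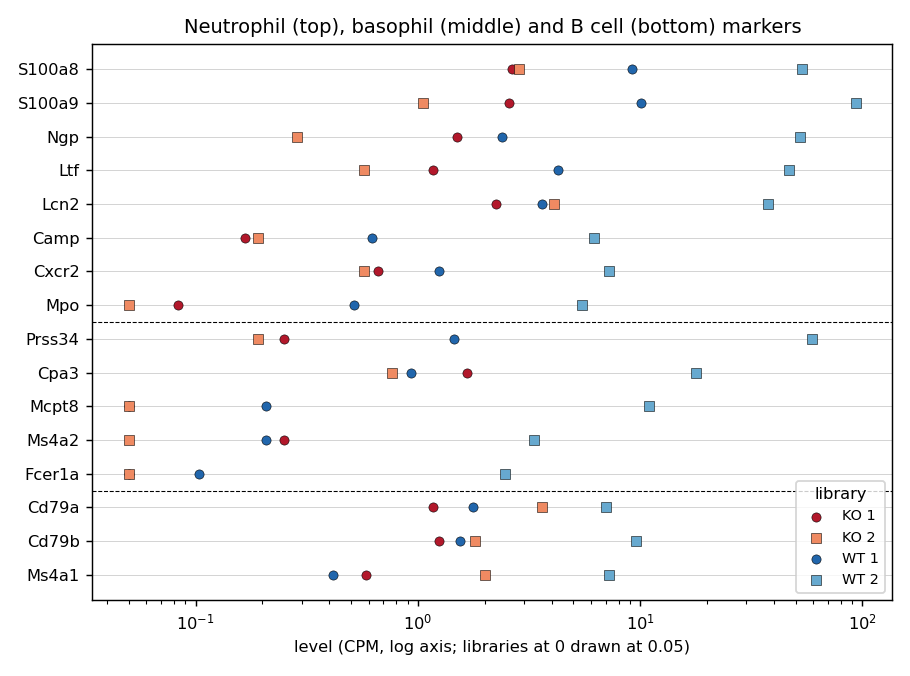
Level of neutrophil (top), basophil (middle) and B cell (bottom) markers in each steady-state library, in CPM on a log axis, with a library at 0 drawn at 0.05. WT library 2 holds the highest point of every gene plotted, for example 93.6 CPM of S100a9 against at most 10.1 in the other libraries. The genes plotted are a selection. Over the whole lists WT library 2 was highest for 14 of 17, 9 of 16 and 11 of 13 markers, and genes such as Mmp9 and Cd22 are not drawn.

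Gata1 itself (GRCm38 chromosome X, 7959260 to 7976663) had 0 reads in both KO libraries. WT libraries 1 and 2 had 1 and 10 reads. A count of 0 over the KO group allows a level of up to 0.133 CPM (3 reads over the group), counting error only. WT library 1, at 0.104 CPM, lay under that limit, so the label of the KO libraries is set apart from WT only by WT library 2, at 0.792 CPM. The basophil genes named above were highest in that same library, and their part in the Gata1 reads was not tested. Gata1 did not pass the filter and has no fold change.

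Hal was the 1 gene of 12110 (0.00826%) that passed edgeR's quasi-likelihood test at a Benjamini-Hochberg adjusted p under 0.05. No gene (0%) passed it in the lower direction, against 776 genes (6.41%) lower at an unadjusted p under 0.05 and 107 (0.884%) lower by DESeq2. In the higher direction 689 genes (5.69%) had an unadjusted edgeR p under 0.05 and DESeq2 called 103 (0.851%). The DESeq2 total was 210 genes (1.73%), and all 210 were among the 1465 genes (12.1%) with an unadjusted edgeR p under 0.05. The KO and WT libraries did not overlap in 5538 genes (45.7%), 2787 higher (23%) and 2751 lower (22.7%) in KO. Below, a gene is said to have risen or fallen only where it passed the adjusted edgeR test, and other genes are given by their values and unadjusted p.

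**Figure D2:**
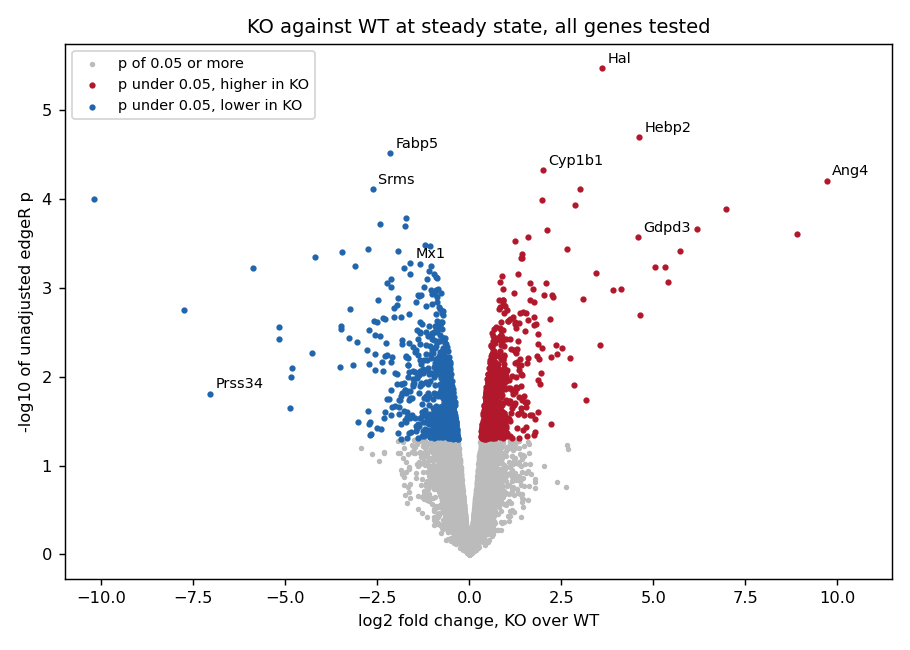
Log2 fold change of KO over WT (horizontal) against the −log10 of the unadjusted edgeR p (vertical) for the 12110 genes tested, with red points higher and blue points lower in KO at p under 0.05. Hal is the uppermost point at a log2 fold change of 3.61, and Prss34, a marker highest in WT library 2, lies at -7.04 with a p of 0.0155. Points of genes with no read in 1 genotype, such as Ang4, depend on the prior count of the fit.

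Hal encodes histidine ammonia-lyase, which starts the breakdown of histidine. Its level was 44.0, 37.6, 3.53 and 3.17 CPM. Both KO libraries were thus more than 10 times above both WT libraries, which were close to each other. The gene rose in KO by a log2 fold change of 3.61 ± 0.19 (edgeR adjusted p = 0.0407). DESeq2 gave an adjusted p of 2.7e-25, and over 9 other edgeR fits the adjusted p ran from 0.00069 to 0.181. The call was lost without WT library 1 (log2 fold change 3.68, edgeR adjusted p = 0.107), without WT library 2 (3.53, adjusted p = 0.181) and in the fits to all 8 libraries (adjusted p = 0.0726, or 0.123 with the replicate number as a block), while the fold hardly moved.

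The promoter of Hal is shown because it belongs to the called gene and GATA1 is a factor that binds GATA sequences. It spans the 250 bases before the annotated start, chr10:93488518-93488767 on the plus strand of GRCm38.p6, as RefSeq gives it, and is written 5′ to 3′.
Hal: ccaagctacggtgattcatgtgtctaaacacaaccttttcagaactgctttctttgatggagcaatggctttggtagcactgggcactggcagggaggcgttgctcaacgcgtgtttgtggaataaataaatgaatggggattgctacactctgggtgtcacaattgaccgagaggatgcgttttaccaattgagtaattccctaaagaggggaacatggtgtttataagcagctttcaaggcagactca
No letter is in capitals, since neither AGATAA nor TGATAA, nor GATA alone, was found on either strand. AGATAA or TGATAA stood in 16.6% of all 32851 promoters of this length and in 9.46% of the 11588 promoters of tested genes. The share was 10.7% of the 683 promoters of genes higher in KO at an unadjusted edgeR p under 0.05 and 8.64% of the 729 promoters of genes lower. No match says only that these letters are not in this window.

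Hebp2, which encodes a haem-binding protein, came closest to Hal among the genes higher in KO, at 31.9, 21.9, 1.35 and 0.871 CPM. Its log2 fold change was 4.61 ± 0.34, with an edgeR adjusted p of 0.121, and it was not called. Gdpd3, a lysophospholipase D gene, was at 64.8, 177, 5.60 and 4.51 CPM. The WT libraries of Gdpd3 agreed closely, while KO library 2 was well above KO library 1. Alox15, a lipoxygenase that oxidises arachidonic acid, was at 20.6, 29.8, 5.60 and 5.94 CPM. Cyp1b1, a cytochrome P450 regulated by the aryl hydrocarbon receptor, was at 80.6, 92.2, 24.2 and 19.3 CPM. In both genes the lowest KO library was over 3 times the highest WT library. Cell surface genes of this set were Colec12, a scavenger receptor, at 105, 95.2, 21.4 and 29.9 CPM, Itgad, the integrin alpha D chain, at 14.3, 17.6, 3.32 and 1.82 CPM, and Siglec5, at 165, 203, 75.8 and 60.2 CPM. Siglec5 is an older symbol, matched here to Siglecf, a sialic acid-binding receptor of eosinophils and alveolar macrophages. The tight junction gene Cldn1 (29.8, 29.4, 12.9 and 12.4 CPM) and the secreted matrix protein gene Ccdc80 (247, 181, 71.2 and 70.7 CPM) complete the 10 genes with the smallest p in this direction, among those whose log2 CPM averaged 3 or more, with no overlap between the groups and no Gm or Rik symbol. None of the 9 besides Hal passed the adjusted edgeR test, and DESeq2 called all of them.

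Fabp5, a carrier of fatty acids, had the smallest p among genes lower in KO under the same limits, at 36.2, 31.0, 164 and 134 CPM (log2 fold change -2.15 ± 0.17, edgeR adjusted p = 0.122). Both KO libraries were under 37 CPM and both WT libraries over 130. Srms and Ptk6, kinases of the same small non-receptor tyrosine kinase family, were at 7.98, 10.5, 47.0 and 67.1 CPM and at 6.73, 6.69, 30.9 and 60.4 CPM. Their log2 fold changes were -2.63 ± 0.25 and -2.77 ± 0.36. WT library 2 was the highest for both kinases, and their log2 fold changes without it were -2.35 and -2.20. Mx1 and Mx2, interferon-induced GTPases, were at 454, 606, 1706 and 1547 CPM and at 7.48, 10.3, 39.1 and 28.7 CPM. RefSeq annotates both Mx genes as transcribed pseudogenes in this assembly. Lamb3, a laminin chain, was at 5.49, 3.72, 28.3 and 21.5 CPM, and Col20a1, a collagen chain, at 7.32, 8.79, 25.1 and 28 CPM. Hspa8, a constitutive chaperone, was at 35.8, 32.3, 135 and 96.5 CPM. Wfdc17, a whey acidic protein domain gene, was at 119, 103, 260 and 252 CPM, and Apoa1bp, the older symbol of the epimerase gene Naxe, was at 71.5, 75.9, 161 and 148 CPM. The edgeR adjusted p of the 19 genes of the 20 that were not called ran from 0.121 to 0.186, and DESeq2 called all 20. Srms, Ptk6 and Col20a1 lie close together on chromosome 2, and Mx1 and Mx2 on chromosome 16. For these genes a difference of strain cannot be told apart from the knock-out. Hspa8 and Fabp5 have near-identical copies elsewhere in the genome, and no source used here says how reads matching several genes were handled, so both are uncertain.

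**Figure D3:**
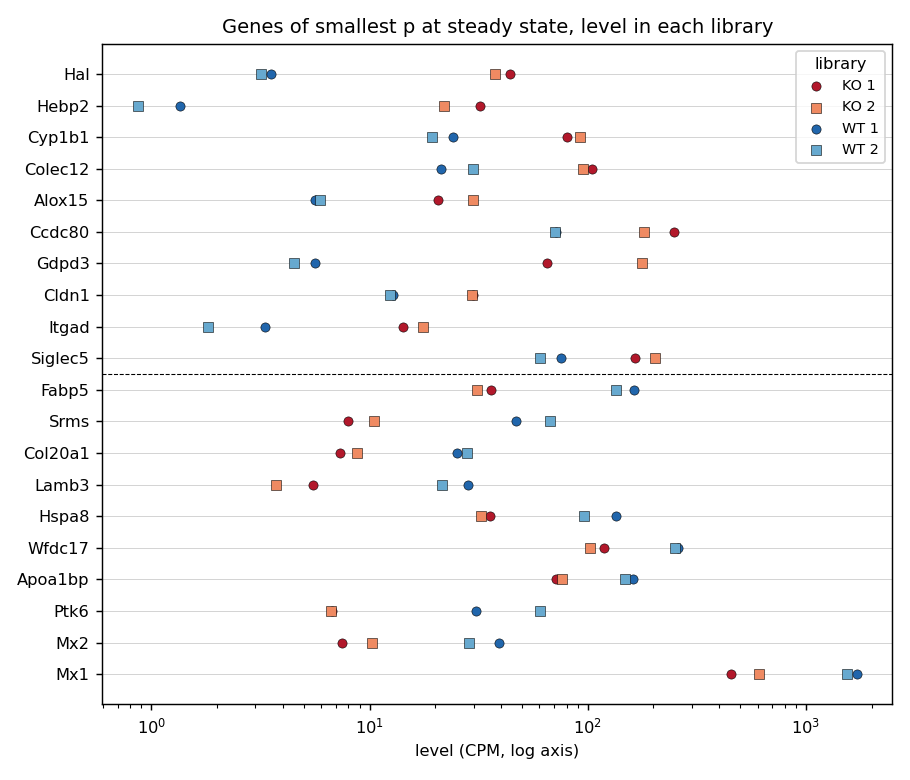
Level in each library, in CPM on a log axis, of the 10 genes higher in KO (above the dashed line) and the 10 lower in KO (below it) with the smallest p and a mean log2 CPM of at least 3. KO (red) and WT (blue) points do not overlap in any row, which the choice of genes required, and Gdpd3 has the widest gap between KO libraries (64.8 and 177 CPM).

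The series title names polysialic acid and CCL21, and the genes of that axis were read from the receptor to the enzymes. Ccr7, the receptor, was at 2052, 2291, 2907 and 3415 CPM. Both KO libraries lay below both WT libraries, and the log2 fold change was -0.54 ± 0.21 (edgeR unadjusted p = 0.0487, adjusted p = 0.411). Leaving out 1 library gave -0.66 (without WT library 1) to -0.42 (without WT library 2). St8sia4, the polysialyltransferase of immune cells, was at 216, 231, 204 and 279 CPM. Its WT libraries enclosed both KO libraries, and its log2 fold change of -0.11 ± 0.20 turned to 0.13 without WT library 2. Nrp2, a carrier of polysialic acid, was at 435, 293, 248 and 308 CPM, with overlapping groups (log2 fold change 0.39 ± 0.24). Of the genes that make and move the sugar precursor, Cmas, which activates sialic acid, was at 32.3, 32.6, 48.8 and 40.9 CPM (-0.47 ± 0.15, edgeR unadjusted p = 0.0241). Nans, the sialic acid synthase, was at 113, 110, 135 and 136 CPM (-0.28 ± 0.13), and Slc35a1, the Golgi transporter, at 24.8, 27.7, 22.5 and 16 CPM (0.45 ± 0.21). Gne, the enzyme that starts the pathway, was at 29.3, 30.5, 26.8 and 29.8 CPM (0.08 ± 0.14). St8sia1, a sialyltransferase that makes gangliosides, was at 4.82, 3.15, 1.66 and 3.64 CPM (0.57 ± 0.47). The remaining members were too low to test: Ncam1 had at most 8 reads in a library, St8sia2 at most 2, Ccl19 at most 1, and Ccl21a and Nanp none. Ccr7 and Cmas were thus the 2 of 8 tested members with an unadjusted p under 0.05, both lower, and none was higher. Of all genes, 6.41% were lower and 5.69% higher at that p.

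Maturation genes of dendritic cells leaned one way. Of 28 tested members 14 were lower in KO at an unadjusted edgeR p under 0.05 and 0 higher, where 6.41% and 5.69% of all genes were, and the groups did not overlap in 20, all lower, as they did in 22.7% of all genes in that direction. None passed the adjusted edgeR test or DESeq2. The median log2 fold change was -0.52, against 0.00 over all genes tested. Cd86, the costimulatory ligand of CD28, was at 72.0, 88.5, 119 and 118 CPM (-0.56 ± 0.15). Icam1, which binds the integrin LFA-1 on T cells, was at 339, 370, 501 and 653 CPM (-0.70 ± 0.20). In both genes every KO library was below every WT library. Il4i1, an amino acid oxidase, was at 15.8, 13.6, 22.7 and 24.5 CPM (-0.68 ± 0.17), and Tnfrsf4, the receptor OX40, at 3.82, 3.15, 9.64 and 6.34 CPM (-1.18 ± 0.32). The most abundant member, the chemokine gene Ccl22, was at 4504, 4903, 4794 and 8585 CPM, with overlapping groups, and its log2 fold change of -0.51 became -0.03 without WT library 2. Without that library the median of the list was -0.34, against 0.01 over all genes tested. Fewer members were then lower at an unadjusted edgeR p under 0.05, while more of all genes were. Without KO library 1 or KO library 2 the count was 3 each, with medians of -0.51 and -0.46. Over all genes the count lower at that p also fell, from 776 to 349 and 452. The list's members were higher in WT library 2 than in WT library 1, by a median of 0.26 log2 units, along with the neutrophil and B cell markers, whose part in the result was not tested.

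**Figure D4:**
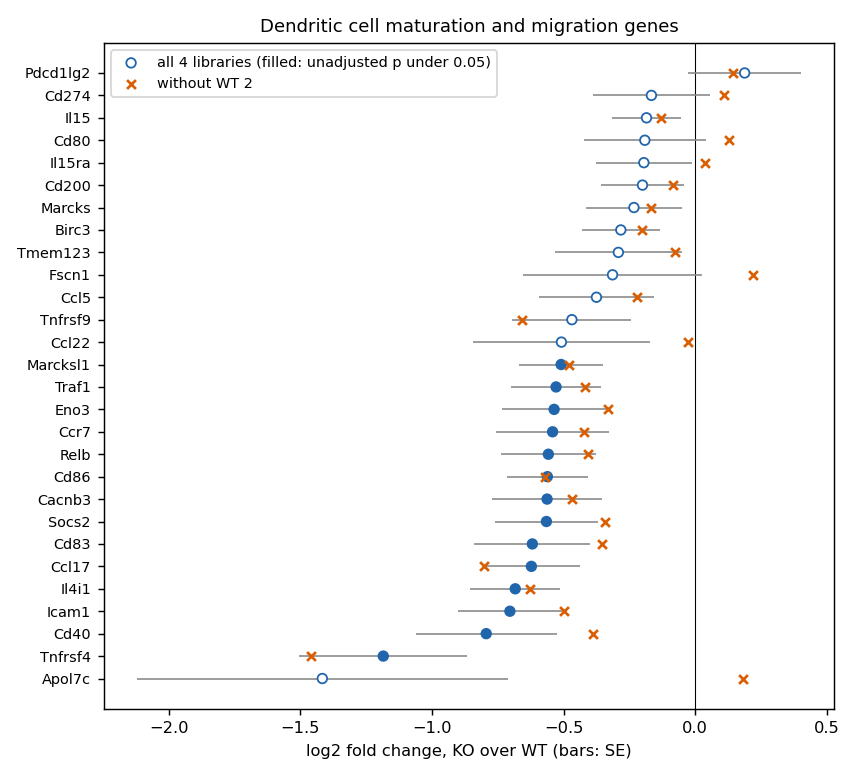
Log2 fold change of KO over WT for 28 maturation and migration genes, as circles with bars of 1 SE (filled where the unadjusted edgeR p is under 0.05), and the fold change without WT library 2 as crosses. Of the 28 circles, 27 lie left of 0, while the crosses of Apol7c, Fscn1, Cd274, Cd80 and Il15ra lie right of it, as do both marks of Pdcd1lg2.

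The NF-kB pathway, which drives many maturation genes, had 7 of 29 members lower at an unadjusted edgeR p under 0.05 and 0 higher, with a median of -0.28. Of all genes, 6.41% were lower and 5.69% higher at that p. Nfkbib, an inhibitor that holds NF-kB in the cytoplasm, was at 61.5, 51.6, 117 and 115 CPM (-1.04 ± 0.15, edgeR adjusted p = 0.186, called by DESeq2). Both WT libraries lay well above both KO libraries. Relb, a subunit of the non-canonical dimer, was at 409, 383, 525 and 640 CPM (-0.56 ± 0.18), and Traf1, an adaptor induced by the pathway, at 381, 344, 484 and 561 CPM (-0.53 ± 0.17). Relb and Traf1 are also members of the maturation list. Without WT library 2 7 members were lower and 1 higher at that p, and the median was -0.19. Without KO library 1 or KO library 2 1 member was lower, with medians of -0.31 and -0.30. Over all genes the count lower at that p rose without WT library 2 and fell without either KO library. Of 14 tested cytokine genes known to respond to LPS, none had an unadjusted edgeR p under 0.05 in either direction. Il12b, a subunit of interleukin 12, was at 157, 165, 66.7 and 194 CPM, with the 2 WT libraries on either side of both KO libraries. Of 17 chemokine genes, Cxcl16 (428, 473, 669 and 689 CPM) and Ccl17 (218, 212, 375 and 288 CPM) were lower at an unadjusted p under 0.05 and none higher. The chemokine median of -0.51 became -0.05 without KO library 1 and -1.25 without KO library 2.

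Genes of MHC class I presentation were lower in 8 of 17 members at an unadjusted edgeR p under 0.05 and higher in 0, with a median log2 fold change of -0.40. Of all genes, 6.41% were lower and 5.69% higher at that p. Psme1 and Psme2, the activator subunits that open the proteasome for peptide production, were at 156, 155, 252 and 227 CPM and at 43.6, 48.5, 68.2 and 61.8 CPM. Psmb9, a catalytic subunit of the immunoproteasome, was at 120, 103, 165 and 159 CPM. These 3 genes had every KO library below every WT library. The class I chains themselves were closer together, with H2-K1 at 1316, 1202, 1783 and 1534 CPM (-0.40 ± 0.20) and B2m at 2368, 2269, 2699 and 2625 CPM (-0.20 ± 0.20). Without WT library 2 the median was -0.51, and 11 members were lower and 1 higher at an unadjusted p under 0.05. Without KO library 1 or KO library 2 no member was, with medians of -0.42 and -0.33. Over all genes the count lower at that p also rose without WT library 2 and fell without either KO library. Class II genes had a median of -0.08, which became -0.36 without WT library 2 and 0.27 without WT library 1. At an unadjusted edgeR p under 0.05 in all 4 libraries, 2 of 17 were lower and 0 higher. Of these, H2-Eb2 was at 3.24, 6.59, 23.4 and 17.2 CPM (-2.05 ± 0.38, called by DESeq2) and H2-Oa, part of a regulator of peptide loading, at 28.8, 38.0, 83.4 and 48.7 CPM (-0.98 ± 0.29). Cd74, the invariant chain, was at 11575, 10943, 16028 and 7727 CPM, and the WT libraries enclosed both KO libraries.

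Interferon-stimulated genes had 8 of 40 tested members lower and 1 higher at an unadjusted edgeR p under 0.05, with a median of -0.22. Tap1 and Psmb9, among the 8, are also members of the class I list. Of all genes, 6.41% were lower and 5.69% higher at that p. DESeq2 called 4, all lower, where it called 0.884% of all genes lower. Beside Mx1 and Mx2, these were Bst2, the tether of budding viruses, at 105, 112, 361 and 231 CPM (-1.45 ± 0.25) and Gbp2, a guanylate-binding GTPase, at 199, 179, 279 and 339 CPM (-0.71 ± 0.17). KO and WT libraries did not overlap in any of the 4. Mx1 and Mx2 lie close together on chromosome 16, where a difference of strain cannot be told apart from the knock-out. Without KO libraries 1 and 2 there were 5 and 6 lower at that unadjusted p. The median of the list was -0.51 without WT library 2 and 0.17 without WT library 1, so the sign of the median changed without WT library 1. The members were lower in WT library 2 than in WT library 1 by a median of 0.44 log2 units.

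The promoters of Bst2 and Gbp2 are shown because both genes were lower in KO together with other interferon-stimulated genes. Interferon-regulatory factors bind repeats of GAAA, and GAAA, any 2 bases and GAAA again was searched on both strands. Capitals mark the matches, which in Bst2 overlap. The windows are chr8:71537473-71537722 on the minus strand and chr3:142620413-142620662 on the plus strand of GRCm38.p6, from RefSeq, each written 5′ to 3′ and ending at the base before the start.
Bst2: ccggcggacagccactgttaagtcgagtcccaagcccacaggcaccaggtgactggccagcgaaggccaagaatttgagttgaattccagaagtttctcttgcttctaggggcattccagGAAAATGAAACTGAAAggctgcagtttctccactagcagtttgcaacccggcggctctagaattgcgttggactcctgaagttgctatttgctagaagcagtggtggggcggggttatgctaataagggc
Gbp2: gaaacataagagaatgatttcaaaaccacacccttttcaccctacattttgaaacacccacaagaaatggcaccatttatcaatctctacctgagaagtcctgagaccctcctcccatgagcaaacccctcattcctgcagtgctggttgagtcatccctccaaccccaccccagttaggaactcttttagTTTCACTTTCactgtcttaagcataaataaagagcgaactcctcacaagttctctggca
The match of Gbp2 reads on the opposite strand and spans bases 59 to 50 before the start. The matches of Bst2 begin 130 and 124 bases before it. This repeat stood in 20 of 36 promoters of the tested interferon-stimulated genes (55.6%), in 2.73% of promoters of all tested genes and in 2.98% of all promoters in the table. It stood in 3 of 5 promoters of the members lower at an unadjusted p under 0.05. A match is a description of the letters and shows no binding.

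Among GATA factors and their partners, 2 of 10 tested members were higher at an unadjusted edgeR p under 0.05, as were 5.69% of all genes, 0 were lower, and the median was 0.19. Gata2 was at 54.5, 82.0, 34.5 and 38.9 CPM (0.89 ± 0.23, edgeR unadjusted p = 0.00884, adjusted p = 0.282). Runx1, a partner of GATA factors in blood progenitors, was at 140, 139, 88.8 and 95.2 CPM (0.60 ± 0.13, edgeR unadjusted p = 0.00454). Both genes had every KO library above every WT library, and without WT library 2 their log2 fold changes were 0.98 and 0.66. Gata2 is also a basophil, mast cell and progenitor gene. Prss34 and Cpa3, markers of the first of these cell types, were at their highest in WT library 2, and without that library their log2 fold changes were -2.65 and 0.39. Cd34, a progenitor surface marker, was at 53.3, 125, 28.8 and 19.4 CPM (1.89 ± 0.44, called by DESeq2). The stem and progenitor markers as a list did not share that direction. Of 9 tested, 2 were higher and 1 lower at an unadjusted edgeR p under 0.05, against 5.69% and 6.41% of all genes. Their median was -0.26, and 9 of 13 markers were highest in WT library 2.

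Markers of dendritic cell subsets differed in direction. The counts that follow stand beside 5.69% of all genes higher and 6.41% lower at an unadjusted edgeR p under 0.05. Of 14 tested genes of type 2 and monocyte-derived dendritic cells, 3 were higher at an unadjusted edgeR p under 0.05 and 0 lower, with a median of 0.55. Cd24a was at 363, 531, 271 and 242 CPM, Itgam, the integrin chain CD11b, at 1784, 2318, 1312 and 1209 CPM, and Clec4a2, an inhibitory lectin, at 85.8, 107, 70.9 and 61.2 CPM. Every KO library was above every WT library in these 3 genes. Without WT library 2 the median was 0.43, and no member had an unadjusted p under 0.05. Of 11 type 1 markers, 4 were lower and 1 higher, with a median of -0.23. Cd8a was at 0.499, 0.955, 5.39 and 3.48 CPM (-2.60 ± 0.49, called by DESeq2), Batf3, a transcription factor required for that subset, at 74.7, 58.0, 105 and 105 CPM (-0.66 ± 0.17), and Clec9a, a receptor for dead cells, at 8.81, 7.07, 13 and 21.6 CPM (-1.12 ± 0.31). Wdfy4, needed for cross-presentation, was the exception at 189, 229, 136 and 143 CPM (0.59 ± 0.16). Of 7 tested eosinophil markers 3 were higher and 0 lower. DESeq2, which called 0.851% of all genes higher, called the same number: Alox15, Siglec5 and Ear1 (3.16, 1.81, 0.104 and 0.158 CPM). The eosinophil granule genes Epx and Prg2 were at 0, 0, 0 and 0.317 CPM and at 0, 0.764, 0.933 and 3.64 CPM, so neither followed those 3 genes. Ear1 has near-identical family members, which leaves its count uncertain.

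Metabolic genes included both directions. Their counts stand beside 5.69% of all genes higher and 6.41% lower at an unadjusted edgeR p under 0.05. Of 28 genes of cholesterol and fatty acid synthesis, 10 were higher and 1 lower in KO at an unadjusted edgeR p under 0.05, with a median of 0.33, and DESeq2 called none. Fasn, the fatty acid synthase, was at 208, 188, 127 and 133 CPM (0.61 ± 0.14), and Stard4, a sterol carrier, at 36.7, 31.3, 16.5 and 22.2 CPM (0.81 ± 0.20). The lower member was Pmvk, the phosphomevalonate kinase, at 52.5, 49.4, 75.6 and 90.0 CPM (-0.70 ± 0.15). Without WT library 2 there were 5 higher and 2 lower, with a median of 0.26, and without KO libraries 1 and 2 there were 2 and 7 higher. Over all genes the count higher at that p rose without WT library 2 and fell without either KO library. Of 15 genes of amino acid breakdown and transport 5 were higher and 1 lower. Hal and 3 transporters were called higher by DESeq2, which called 0.851% of all genes higher. The list was drawn up with earlier results of these data known, and Hal, the gene called by edgeR, is counted in it. Slc7a2, which carries arginine and other cationic amino acids, was at 169, 89.7, 20.6 and 32.6 CPM (2.28 ± 0.38). Slc7a5 and Slc7a8, light chains of large neutral amino acid transporters, were at 41.3, 37.2, 16.2 and 21.9 CPM (1.04 ± 0.19) and at 125, 161, 87.7 and 62.3 CPM (0.93 ± 0.23). No KO library of these transporters overlapped a WT library, and their log2 fold changes without WT library 2 were 2.65, 1.28 and 0.71. Hk2, the inducible hexokinase, was at 130, 117, 74.3 and 66.4 CPM (0.81 ± 0.14, called by DESeq2), and the glycolysis list had 3 of 24 higher and 2 lower.

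Of 33 cytosolic ribosomal protein genes, 7 were lower and 0 higher at an unadjusted edgeR p under 0.05, with a median of -0.45. The shares of all genes at that p were 6.41% lower and 5.69% higher. Rps19 was at 53.6, 64.0, 118 and 82.9 CPM (-0.77 ± 0.21), and Rplp1 at 143, 155, 300 and 193 CPM (-0.72 ± 0.24). WT library 1 was the highest for both genes. The median was -0.71 without WT library 2, with 25 lower members, and -0.09 without WT library 1, with 4. Without KO libraries 1 and 2 there were 0 and 1 lower. Over all genes the count lower at that p rose without either WT library and fell without either KO library. Ribosomal protein genes have many processed copies, so their counts are uncertain. Of 26 genes of the nuclear-encoded respiratory chain and 31 cell cycle genes, none had an unadjusted edgeR p under 0.05, with medians of 0.03 and 0.30.

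**Figure D5:**
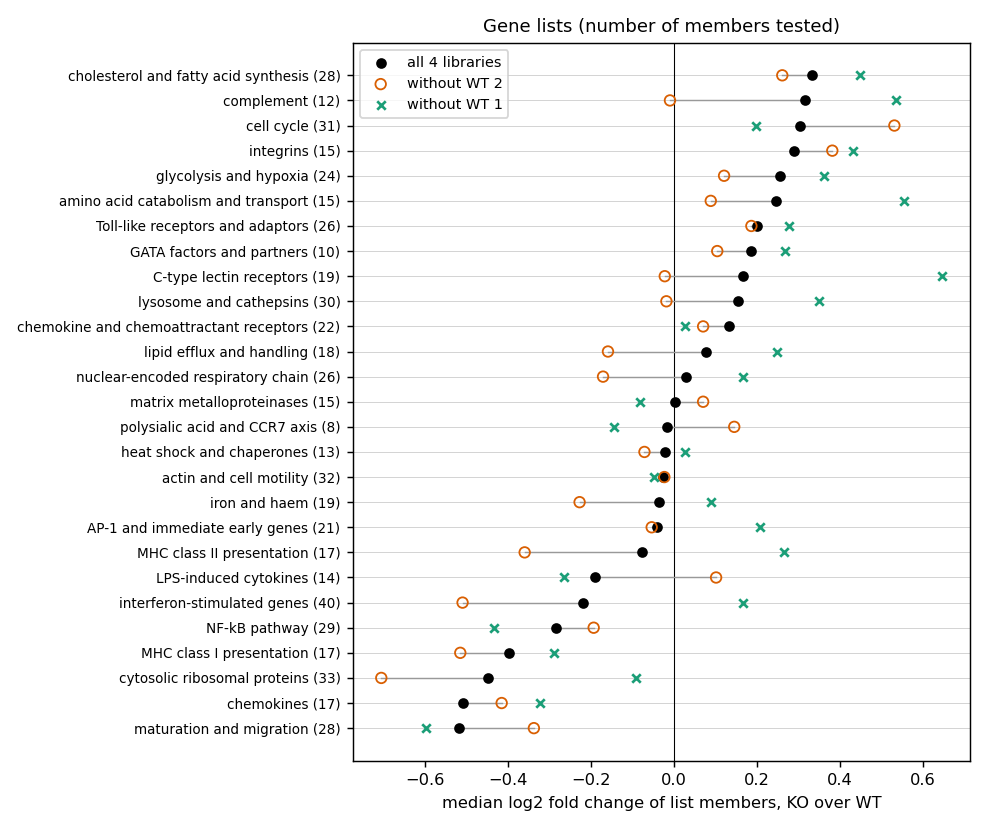
Median log2 fold change of KO over WT for each gene list (number of members tested in brackets), from all 4 libraries (black), without WT library 2 (open orange) and without WT library 1 (green crosses). Maturation, MHC class I, chemokine, NF-kB and ribosomal lists lie left of 0 under all 3, while the interferon list moves from -0.51 to 0.17. Fits without a KO library are not drawn, and there the chemokine median was -0.05 (without KO library 1) and -1.25 (without KO library 2).

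Each library was left out in turn to see how far the differences rested on WT library 2. Leaving out any 1 of the 4 libraries turned the direction of 0 of the 1465 genes with an unadjusted edgeR p under 0.05, which the choice of genes nearly fixes, since all but 1 had no overlap between the groups. Among all 12110 tested genes it turned 2074 without WT library 2, 2234 without WT library 1, and 1452 without either KO library. Of the 1465 genes, 891 had a fold of at least 1.5, and 846 had one without WT library 2, against 869 without WT library 1, 894 without KO library 1 and 828 without KO library 2. The fold moved by over 1.5 times in 62 genes without WT library 2 and in 36, 56 and 41 without KO libraries 1 and 2 and WT library 1. Of those 62 genes, 46 lower in KO and 6 higher in KO moved toward 0, a split that was not made for the other libraries. The 20 genes shown by library above, chosen for groups that do not overlap, kept a 2-fold difference without it, the largest move being 0.57 log2 units. Of 142 genes called by DESeq2 with a 2-fold difference, 126 kept it.

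Neutrophil and basophil genes were among those that moved furthest without that library. Of 14 tested neutrophil markers 10 were lower in KO at an unadjusted edgeR p under 0.05, 0 were higher, and the median was -2.72. The shares of all genes at that p were 6.41% lower and 5.69% higher. Without WT library 2 the median was -1.09, with 5 lower. The log2 fold change of Prss34 went from -7.04 to -2.65, that of Ngp from -4.88 to -1.37, that of the neutrophil granule gene Ltf from -4.85 to -2.26 and that of Lcn2, an iron-trapping granule protein, from -2.71 to -0.20. S100a8 and S100a9 were at -1.74 and -2.45 without it, since WT library 1 was above both KO libraries too. The median of the 7 tested B cell markers turned from -1.66 to 0.56 and that of the 7 basophil and mast cell markers from -0.61 to 0.23.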

How the data were processed

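The authors deposited whole-number read counts per gene, not normalized, 1 column per library. The tools edgeR 3.6.8, Subread 1.4.3, TopHat2 2.0.8 and featureCounts and the build mm10 stand, without roles, in the submitters' processing notes. RNA was purified and made into libraries with kits that, per the labels' protocols, include TruSeq RNA v2, which does not mark strand, so overlapping and antisense genes cannot be told apart.

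Groups and replicate numbers came from sample titles. Counts of the 4 steady-state libraries went into edgeR 4.0.16 (R 4.3.3): filterByExpr (minimum count 10, minimum total 15), TMM factors, and a two-sided quasi-likelihood F test with 1 coefficient per group, 2 residual degrees of freedom (3.50 prior) and a coefficient of biological variation of 0.190. The SE is the fold change divided by the square root of F. LPS libraries were left out because an earlier analysis of these data showed a larger spread in them. Replicates did not agree within sampling noise (chi-square per gene 19.2 in KO and 46.6 in WT). The procedure was tested on simulated counts of 12110 genes, where it recovered 95% of 100 genes changed by log2 2 and 100% of 100 changed by log2 4, with 16 false calls. These counts were drawn with the dispersions fitted to the same libraries, and only genes above a set level were changed. In the data 375 genes had an unadjusted edgeR p under 0.05 and a 2-fold difference, and only Hal was called. The recovery is therefore no measure of power in these data.

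The members, the 44 gene lists (855 entries, 7 not in the file, 10 matched by an older symbol) and the tests were chosen with earlier results of these data known. Named genes were Gata1 and the polysialic acid list. Further named genes were those called, filled to 10 per direction by smallest p, mean log2 CPM 3 or more, no overlap and no Gm or Rik symbol. In each list up to 4 genes of smallest p and 2 of largest mean CPM were named, and in marker lists up to 5 with the largest difference between WT libraries. Other names were chosen after their values were seen, and some genes that the rule gave are left out here. Promoters and coordinates are from RefSeq GRCm38.p6; 9 of the 20 genes shown by library had a promoter. Alternatives were RLE or upper-quartile factors, other filters, DESeq2 1.42.0, robust dispersion, all 8 libraries, the replicate number as a block, other thresholds and leaving out each library.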

Additional observations from a re-analysis of the deposited data

How the results depend on the processing

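The count of called genes was 1. It was 150 (75 higher and 75 lower) with no filter on low counts, 210 with DESeq2, and 97 (50 higher and 47 lower) with the replicate number as a block. It was 0 in edgeR fits to all 8 libraries, where 327 genes had an unadjusted p under 0.05, 0 with the block over all 8 libraries (275 genes), and 0 at an adjusted p under 0.01. Leaving out 1 library gave 0 to 37 calls (37 without KO replicate 2, 5 without KO replicate 1, and 0 without WT replicate 1 or 2, where 2188 and 2432 genes had an unadjusted edgeR p under 0.05, against 777 and 776 without KO replicates 1 and 2). The left-out group then has 1 library, assumed to vary like the other. The cause of these moves was not tested. RLE or upper-quartile factors, a CPM of at least 1 in 2 libraries, robust dispersion and a minimum fold of 1.5 gave 1 call each. With upper-quartile factors the genes at an unadjusted p under 0.05 were 557 higher and 891 lower, against 689 and 776. Of those 1465 genes, 1272 were also under 0.05 with the block. The replicate numbers share only a number, since the labels tie them to no animal or day, and same-numbered libraries deviated together with a correlation of 0.165 over 2 pairs.

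The 121 genes followed here were the polysialic acid list, the genes shown by library and named list members with an unadjusted edgeR p under 0.05. That choice nearly fixes the direction of most of them. Of the 121, 2 turned direction. St8sia4 went to 0.13 without WT replicate 2 (leave-one-out range -0.33 to 0.13) and Gne to -0.0011 without WT replicate 1 (range -0.0011 to 0.16). Named genes outside this set turned too, such as Cpa3 (-2.94 to 0.39) and Ms4a1 (-1.61 to 1.59) without WT replicate 2. Of 40 list medians, 12 changed sign without WT replicate 2, 8 without WT replicate 1, 7 and 6 without KO replicates 1 and 2, 1 with RLE and 3 with upper-quartile factors. With 2 libraries a group there were 2 residual degrees of freedom. Genes near the floor of 3 reads over a group (0.133 CPM in KO and 0.135 in WT) cannot be compared.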

Other observations

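Some genes were read almost entirely in 1 genotype, at 2 CPM or more in both of its libraries and at most 3 reads over the other genotype, a rule chosen after the data were seen. Ang4, a secreted ribonuclease of the angiogenin family, was at 8.31, 10.4, 0 and 0 CPM in KO 1, KO 2, WT 1 and WT 2. That is at least 69.0-fold higher in KO, taking 3 reads over the WT group as the floor. Ang6, of the same family and also on chromosome 14, was at 4.41, 6.4, 0 and 0 CPM (at least 39.6-fold higher). In the other direction Gm10432 was at 0, 0, 9.95 and 16.3 CPM, at least 101.7-fold lower in KO. H60b, a ligand of the receptor NKG2D, had 43, 47, 0 and 1 reads, a ratio of 89.1 with a 95% counting interval of 15.6 to 3557. Aldh1a7, an aldehyde dehydrogenase, had 1, 0, 23 and 51 reads, a ratio of WT over KO of 74.8 with an interval of 13 to 2992. Cilp2, Serpina3h and 4931408C20Rik, with 41 and 48, 27 and 46, and 34 and 32 reads in KO, had at most 2 reads over the WT group. Ang4, Ang6, H60b, Serpina3h and Aldh1a7 have close paralogs, so their counts are uncertain.

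In 3 places, all picked after their values were seen, neighbouring genes with an unadjusted edgeR p under 0.05 shared a direction. On chromosome 2, between 181186822 and 181242058, Ppdpf, Ptk6, Srms and Helz2 were all lower in KO at an unadjusted edgeR p under 0.05. Helz2, a helicase and nuclear receptor co-activator, was at 346, 371, 973 and 1776 CPM (-1.94 ± 0.32). In the fixed window of 5 Mb from 180 Mb that holds them, 14 of 43 tested genes were lower and 0 higher, Col20a1 among the lower ones. On chromosome 16, between 97356728 and 97560901, Bace2, Mx1, Fam3b and Mx2 were all lower. Bace2, a protease, was at 0.582, 1.34, 9.12 and 7.44 CPM (-3.11 ± 0.44). In the window from 95 to 100 Mb, 7 of 16 tested genes were lower and 0 higher. On chromosome 14, 43 genes from Ear1 to Ang4 had 11 higher and 0 lower, a stretch whose ends are genes picked for being higher. The fixed windows there had 5 of 24 tested genes higher and 0 lower from 45 to 50 Mb, and 6 of 53 higher and 2 lower from 50 to 55 Mb. Over 379 windows with at least 10 tested genes, the median share of genes with an unadjusted p under 0.05 was 11.1%. In 13 windows 5 or more such genes were found, in 1 direction only. Among these was chromosome 6 from 140 to 145 Mb, with 5 of 10 tested genes lower and 0 higher, Cmas among the 5. Genes of a window are not independent, and no test was made. No source used here gives the strain of either genotype. A difference of strain cannot be told apart from the knock-out in these regions, Cmas included, or in genes read almost entirely in 1 genotype.

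Toll-like receptors and their adaptors had 4 of 26 members higher and 1 lower in KO at an unadjusted edgeR p under 0.05, as were 5.69% and 6.41% of all genes. Tlr8, an endosomal receptor, was at 175, 140, 79.2 and 93.7 CPM (0.87 ± 0.18, called by DESeq2). Tirap, an adaptor of TLR2 and TLR4, was at 39.2, 36.2, 23.7 and 25.2 CPM (0.62 ± 0.14). KO and WT libraries did not overlap in either gene. Of 15 integrin chains 3 were higher and 0 lower at that p, Itgam, Itgb5 and Itgav. Itgb5 was at 445, 414, 321 and 278 CPM, and Itgav, its partner chain, at 52.3, 63.7, 44.5 and 40.1 CPM. Without KO library 2 the receptor list had 2 higher and 0 lower, and no integrin had an unadjusted p under 0.05. Klrb1c, which encodes the antigen NK1.1, was at 8.40, 4.30, 0.518 and 0.634 CPM (3.43 ± 0.50, called by DESeq2), while the other NK cell gene tested, Klrk1, was at 50.8, 71.3, 58.5 and 49.8 CPM.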
